A study of Mus musculus with 18 samples.

Results

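The peak lists of mouse embryonic fibroblasts (MEFs) and embryonic stem cells (ESCs) were compared by position and by gene name. All 10167 peaks of the authors' final MEF list and all 10431 peaks of their final ESC list were used, 20598 of the 28982 peaks in the 3 final lists of the series. A peak is a stretch of the genome where RNA fragments pulled down with an antibody against N6-methyladenosine (m6A) piled up over the unenriched input. Peaks that shared at least 1 bp were counted as overlapping, and gene names were joined across the lists by their synonyms.

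The MEF list stands for 2 enriched libraries. These fibroblasts were grown out from a decapitated C57BL/6 embryo of embryonic day 13.5 in serum-containing medium. The ESC list stands for 3 enriched libraries of the BVSC line, also C57BL/6, kept without serum in N2B27 with LIF, CHIR99021 and PD0325901 (2i). Neither group carried a mutation, and m6A was measured in total RNA of both. A library of Mettl3-knockout ESCs, labelled a negative control, and the final list of embryoid bodies (EBs) were used as background. Each cell type has 1 pooled list, so no comparison between MEFs and ESCs has a replicate error, and intervals (Wilson, 95%) cover counting error only. The lists hold positions with no read count or score, so that the depth behind a peak is unknown.

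m6A is the commonest internal mark of mRNA. It is laid down in the nucleus by a complex around Mettl3 and Mettl14, mainly at adenosines in the sequence GGAC or close variants, in long internal exons and around stop codons. Reader proteins of the YTH family bind it, and marked mRNAs are often short-lived. In ESCs, mRNAs of pluripotency factors are known to carry the mark. A peak at the very 5′ end of an mRNA may also come from m6Am, a related mark beside the cap, which the antibody binds as well and which does not need Mettl3.

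The stretches below show the sequence at peaks on which the comparison turns, as 25 nt of the mRNA strand of GRCm38 (mm10) around the GGAC nearest to the peak centre. Capitals mark GGAC. The first set comes from genes of the MEF list only. Twist1 and Scx encode mesenchymal transcription factors, Col12a1 a fibril-associated collagen and Vasn a cell surface protein that binds TGF beta. The sites lie at chr12:33958483-33958507 (plus strand), chr15:76459281-76459305 (plus), chr9:79699395-79699419 (minus) and chr16:4649804-4649828 (plus). That of Scx is in the 3′ UTR, and the other 3 are coding.
Twist1: gcgacgagctGGACtccaagatggc
Scx: acagagagatGGACaggcgggtgat
Col12a1: tcggtgtaaaGGACgctgtgcgctc
Vasn: cttgggagctGGACggacacctgaa
The second set comes from pluripotency factors of the ESC list only, at chr6:122713386-122713410 (plus), chr3:34651215-34651239 (plus), chr2:168756494-168756518 (minus) and chr12:86470316-86470340 (plus), all in coding sequence. The Esrrb site lies in a peak that the Mettl3-knockout library also had.
Nanog: acttcggggaGGACtttctgcagcc
Sox2: gccaggccggGGACctccgggacat
Sall4: gcagctcgggGGACttgaagaagct
Esrrb: ccaacggtctGGACtcgccgcctat
The third set shows 3 genes that had a peak in each list at different sites. Emilin1 has its sites at chr5:30920745-30920769 in MEFs and chr5:30917760-30917784 in ESCs (plus), Ncoa7 at chr10:30691262-30691286 and chr10:30647515-30647539 (minus), and Hdac6 at chrX:7931656-7931680 and chrX:7947646-7947670 (minus). The ESC site of Hdac6 is in the 5′ UTR, in a peak that the Mettl3-knockout library also had, and the others are coding.
Emilin1 in MEFs: tgaacccgagGGACtggagaataag
Emilin1 in ESCs: aaagctggagGGACtactagccaat
Ncoa7 in MEFs: ggaagttatgGGACcagagagtgat
Ncoa7 in ESCs: ctagaggtatGGACatttgagtgaa
Hdac6 in MEFs: gagccacgacGGACctgtgggcctc
Hdac6 in ESCs: ccggtctggcGGACtagaaaggtgg
The last set shows sites inside a peak of both lists, in Jun (3′ UTR, chr4:95050127-95050151, minus) and Klf4 (coding, chr4:55530481-55530505, minus).
Jun: tacacaagatGGACtgggttgcgac
Klf4: ggccggagttGGACccagtatacat
GGAC was sought only in exons of the canonical transcript. It was not found there in the widest peaks of Tbx15 and Zfp42, which are described below, nor in the widest shared MEF peak of Wtap. More genes with peaks at different sites were searched, and only those of the third set had GGAC in both peaks. Col5a2 and Ipo4 lacked it in both peaks, Anln and Cacna1a in the MEF peak and Smurf1 in the ESC peak. The peak of Thy1 is centred outside such exons, so its sequence was not searched, or only in part.

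Most peaks of either list lay in the other. Of the MEF peaks, 6558 overlapped a final ESC peak (64.5%, interval 63.6 to 65.4). Of the ESC peaks, 6226 overlapped a final MEF peak (59.7%, 58.7 to 60.6). This left 3609 MEF peaks without an ESC peak (35.5%) and 4205 ESC peaks without a MEF peak (40.3%). In base pairs, 1.78 Mb was common to both lists, which was 65.3% of the 2.73 Mb under MEF peaks and 49.5% of the 3.60 Mb under ESC peaks.

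Wide peaks overlapped more often than narrow ones in both lists. With each list split by width into 4 equal parts, 85.7% of MEF peaks and 82.7% of ESC peaks in the widest part overlapped the other list. In the narrowest part it was 41.1% of MEF peaks and 30.3% of ESC peaks. The median width was 209 bp in the MEF list and 284 bp in the ESC list. MEF peaks reached down to 3 bp, and 834 of them were under 100 bp, while the narrowest ESC peak had 108 bp. Widths were therefore ranked within a list and not compared between lists.

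In genes, the MEF list named 5329 and the ESC list 6413, of which 4270 were in both. These were 80.1% of the MEF genes and 66.6% of the ESC genes. Of the 7472 genes in either list, 1059 were in the MEF list only (14.2%), 2143 in the ESC list only (28.7%) and 4270 in both (57.1%). MEF peaks were packed into fewer genes, with a mean of 1.91 peaks a gene in MEFs and 1.63 in ESCs. A peak needs its transcript to be expressed. In these lists a gene without a peak can be one that is silent, weakly expressed or unmethylated, and these cannot be told apart here.

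Absence from the final ESC list was not the same as absence from ESCs. Of the 3609 MEF peaks without a final ESC peak, 1562 overlapped no peak of any ESC library, 1573 overlapped a peak of 1 library, 187 of 2 and 287 of all 3. In genes, 170 of the 1059 MEF-only genes had no peak of any ESC library in their exons, which is 2.28% of the genes in either list, and 424 had a peak in 2 or 3 libraries. The final ESC list also left out 1233 of the 11664 merged regions that were found in 2 or 3 ESC libraries, among them 524 that were found in all 3. MEF peaks overlapped 432 of these 1233 regions. By this rule, 214 of the MEF-only genes (20.2%) had a MEF peak in such a region, and among members of the gene lists these were Amer1, Cbx6, Cdkn2c and Rpl24. The list rebuilt from all 11664 regions overlapped 69.0% of the MEF peaks. The counts also rested on ESC library B, which had the most peaks. When regions were required in both of the other libraries, 1998 genes were in the MEF list only and 978 in the ESC list only, so that the order turned round. Without library C the numbers were 1835 and 1234. The ESC list was cut to 5984 peaks without B and to 6775 without C, while the MEF list stayed whole. A shorter ESC list can only raise the first count and lower the second.

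**Figure D1:**
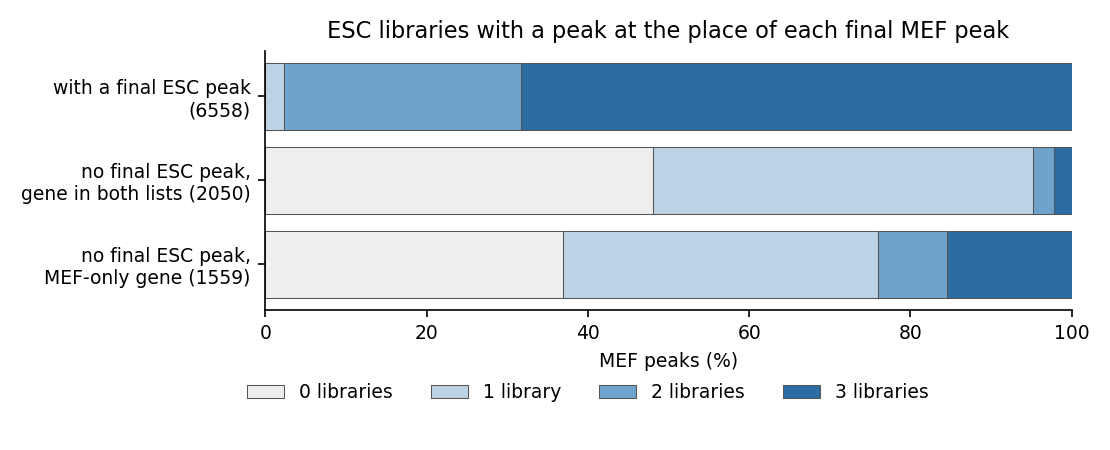
Share of final MEF peaks (%) whose place held a peak in 0, 1, 2 or 3 ESC libraries, for 6558 MEF peaks with a final ESC peak, 2050 without one in genes of both lists, and 1559 without one in MEF-only genes. No ESC library had a peak at 48.1% of the second class and 36.9% of the third.

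The cell type labels were checked against marker genes. Of 10 markers of ESCs, 1 was in the MEF list (Klf4, with 6 MEF peaks and 3 ESC peaks) and 7 were in the ESC list. Nanog, Esrrb, Zfp42, Sox2, Sall4 and Tdgf1 were in the ESC list only, while Pou5f1, Tfcp2l1 and Dppa5a were in neither. Of 14 markers of fibroblasts, 3 were in the MEF list (Thy1, Twist1 and Pdgfrb) and 4 in the ESC list (Col1a2, Col6a1, Pdgfra and Pdgfrb). Col1a1, Col3a1, Fn1 and Vim, among the most abundant mRNAs of fibroblasts, had a peak in neither list. The 7 lists of markers of other cell types had 3 genes in the MEF list, Tubb3, Acan and Col2a1. The ESC list held more of them, with 3 of endothelium, 4 of epithelium, 5 of endoderm and 4 of cartilage and bone. It also held 3 of neurons and glia and 1 each of blood and muscle. Col2a1, the main collagen of cartilage, was in the MEF list only, with 2 peaks.

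Pluripotency genes were mostly in the ESC list only. Of 27 genes of naive pluripotency, 21 had a peak in either list, 0 in the MEF list only, 7 in both and 14 in the ESC list only (66.7%, against 28.7% of all genes). Nanog, which encodes a homeodomain protein that keeps ESCs undifferentiated, had 2 ESC peaks, one of 222 bp near its start, which overlapped a peak of the Mettl3-knockout library, and one of 471 bp before its stop codon (chr6:122713156-122713626), which did not. Both Nanog peaks were found in all 3 ESC libraries. Esrrb, a nuclear receptor, had 3 ESC peaks of 352 to 365 bp, in coding sequence, at the stop codon and 2300 nt after it. Of these the coding peak overlapped the knockout library. Zfp42 (Rex1), a zinc finger factor, had 2 ESC peaks, each in 2 of 3 libraries. Prdm14, Gbx2, Nr5a2, Nr0b1, Tcl1 and the growth factor gene Fgf4 were also in the ESC list only. The 7 members in both lists were Klf2, Klf4, Klf5, Tbx3, Lifr, Zfp57 and Tet2.

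Of 36 genes of core and formative pluripotency, 27 had a peak in either list, 1 in the MEF list only, 4 in both and 22 in the ESC list only (81.5%). Sox2 had 1 ESC peak of 1107 bp that covered the end of its coding sequence and the stop codon (chr3:34650656-34651762). Sall4, a zinc finger factor, had 3 ESC peaks. Zic2, a zinc finger factor of the formative state, had 1 ESC peak of 1248 bp. Nodal, a ligand of the TGF beta family, had 4 ESC peaks of 207 to 820 bp. The gene on the MEF side was that of the DNA methyltransferase Dnmt3a, with 1 MEF peak of 217 bp at its stop codon, and 2 ESC libraries had a peak in its exons. Germline and 2-cell genes had 8 members in the ESC list only, among them Dazl, Zscan4c and Pramel6, and 0 in the MEF list. This was 100% of the members with a peak, against 28.7% of all genes. Hox genes, which set position along the body axis, had 0 members in the MEF list and 5 of 39 in the ESC list, among them Hoxc13 and Hoxd13. These 5 were again 100% of the members with a peak, against 28.7% of all genes, and 1 of them had peaks near the start only.

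**Figure D2:**
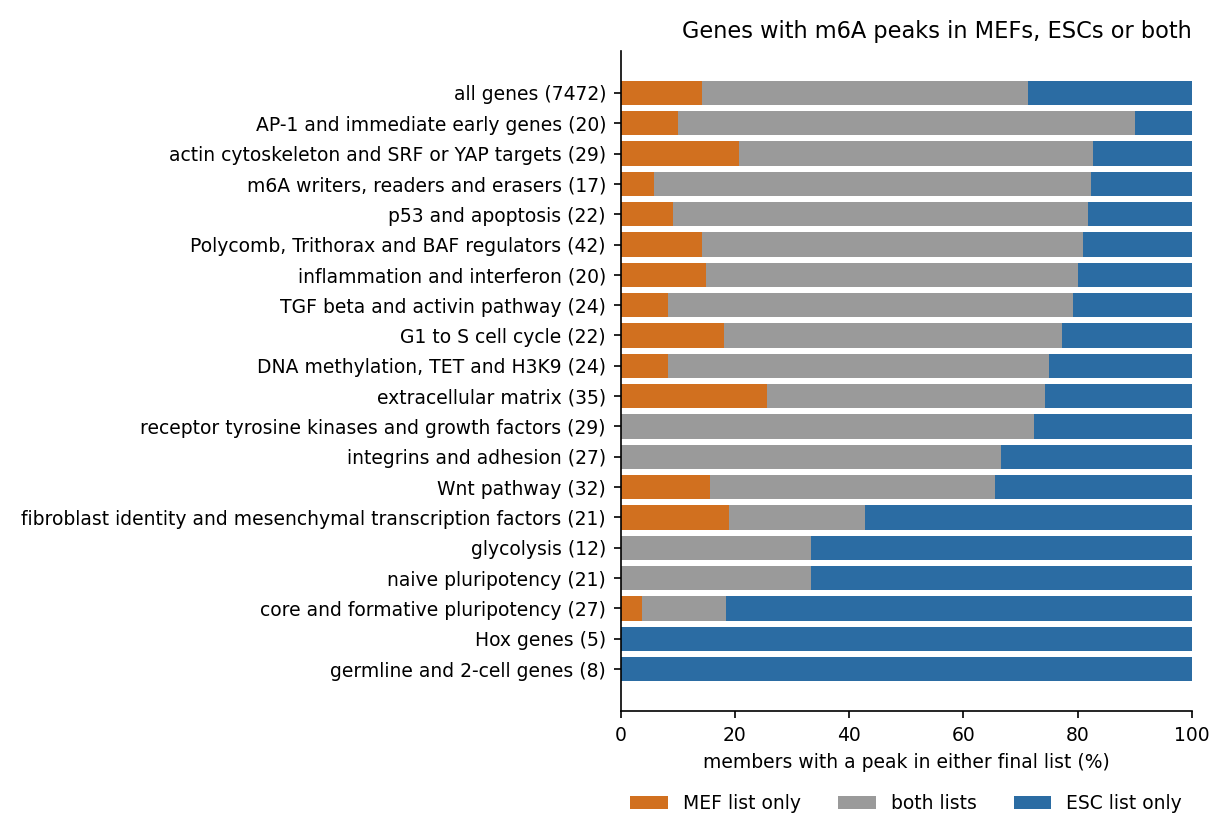
Members of each gene list with a peak in either final list (numbers in parentheses), as shares (%) in the MEF list only, in both lists and in the ESC list only. The top bar shows all 7472 genes, with 14.2% in the MEF list only and 28.7% in the ESC list only. Lists with under 5 members in either list are not drawn.

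Matrix genes stood on both sides in equal number. Of 63 genes of the extracellular matrix, 35 had a peak in either list, 9 in the MEF list only (25.7%, against 14.2% of all genes), 17 in both and 9 in the ESC list only. The MEF-only members included Col12a1, Fbn1, Fbln2, Thbs2, Loxl2, Loxl3, Ccn2 and Ltbp2. Of these, Col12a1 and Ltbp2 had no peak in any ESC library. Loxl3 had a peak in all 3 ESC libraries, Fbln2 in 2, and Fbn1, Thbs2, Loxl2 and Ccn2 in 1 each. Fbn1 encodes fibrillin, the core of microfibrils, and had MEF peaks of 480 bp at its stop codon (chr2:125301325-125301804), of 131 bp in its 3′ UTR and of 99 bp in its 5′ UTR. The fibulin gene Fbln2 had a MEF peak of 424 bp at its stop codon and another in coding sequence. Ccn2 (CTGF), a matricellular protein, had 1 MEF peak of 186 bp at its stop codon. On the ESC side were Col1a2, Col6a1, Col6a2, Hspg2, Nid1, Mmp14, Ccn1, Spp1 and Tnc. The peak of Col1a2 lay in its 5′ UTR. The single peaks of Col6a1 and Nid1, both peaks of Spp1 and the widest of Tnc overlapped a peak of the Mettl3-knockout library.

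Of 64 genes of fibroblast identity and mesenchymal transcription factors, 21 had a peak in either list, 4 in the MEF list only (19.0%, near the 14.2% of all genes), 5 in both (23.8%, against 57.1%) and 12 in the ESC list only (57.1%, against 28.7%). Twist1, a driver of mesenchymal fate, had MEF peaks of 386 bp before and 294 bp after its stop codon, and 1 ESC library had a peak at each. Tbx15, a T-box factor of limb and skin mesenchyme, had 3 MEF peaks around and after its stop codon, the widest of 345 bp (chr3:99352335-99352679), and Scx, a tendon factor, had 3. No ESC library had a peak in Tbx15 or Scx. Thy1, a surface marker of fibroblasts, had 1 MEF peak of 91 bp, outside the exons of its canonical transcript, and 1 ESC library had a peak in Thy1 exons. The 12 on the ESC side included the receptor gene Pdgfra and the factor genes Runx1, Foxc1, Meis1 and Gli3. Zeb1, Tbx3, Gli1, Gli2 and Pdgfrb were in both lists, and Zeb1 had 6 MEF peaks and 3 ESC peaks, with all 3 ESC peaks in common.

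Receptor kinase and adhesion genes had no member in the MEF list only, against 14.2% of all genes. Of 29 receptor tyrosine kinase and growth factor genes with a peak, 0 were in the MEF list only, 21 in both (72.4%, against 57.1% of all genes) and 8 in the ESC list only. Of 27 integrin and adhesion genes, 0 were in the MEF list only. In both lists were 18 (66.7%), and 9 were in the ESC list only (33.3%, against 28.7% of all genes). Among these 9 were Cdh1 (E-cadherin) and Epcam, which hold epithelial cells and ESCs together. Of 24 genes of the TGF beta and activin pathway, 2 were in the MEF list only, 17 in both and 5 in the ESC list only. These shares of 8.33%, 70.8% and 20.8% stood against 14.2%, 57.1% and 28.7% of all genes. The MEF-only members were the receptor gene Tgfbr2, with peaks of 625 bp in coding sequence and 310 bp after its stop codon, and Tgfbi, a secreted protein that TGF beta induces. In ESCs, 2 libraries had a peak in exons of Tgfbr2 and 1 in those of Tgfbi. The ESC-only members were Tgfb2, Tgfbr1, Acvr1, Inhbb and Smad4, and the single peaks of Tgfbr1 and Smad4 lay near the transcript start.

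Of 32 genes of the Wnt pathway with a peak, 5 were in the MEF list only (15.6%, against 14.2% of all genes), 16 in both and 11 in the ESC list only (34.4%, against 28.7%), shares near those of all genes. The frizzled receptor genes Fzd1, Fzd2 and Fzd6 had 6, 3 and 4 MEF peaks and 0 in the final ESC list, with a peak in 1 ESC library each. The widest was that of Fzd1, 881 bp in coding sequence (chr5:4755420-4756300). Fzd3, Fzd4, Fzd9 and Fzd10 were in the ESC list only, with 1, 2, 2 and 4 ESC peaks. Fzd5, Fzd7 and Fzd8 were in both. Dvl1, which acts below the receptors, and Amer1, an inhibitor of the pathway, were in the MEF list only, and Amer1 had a peak in all 3 ESC libraries.

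Genes of the actin cytoskeleton and of SRF or YAP targets had 6 of 29 members in the MEF list only (20.7%, against 14.2% of all genes), 18 in both and 5 in the ESC list only. The 6 were Vcl (vinculin), Myl9, Cald1, Tagln2, Tead3 and Lmod1, of which Tead3 had no peak in any ESC library. Vcl had a single peak of 95 bp near the transcript start. Myl9 and Tagln2 had single peaks of 99 and 101 bp outside the exons of their canonical transcripts. In 2 of the 6 genes all peaks overlapped the Mettl3-knockout library, against 39 of all 1059 MEF-only genes. Lats2, a kinase of the Hippo pathway, had 6 MEF peaks and 1 ESC peak. AP-1 and immediate early genes had the largest share in both lists among the lists with at least 10 members measured, 16 of 20 (80%, against 57.1% of all genes), among them Jun, Junb, Atf3, Dusp1 and Klf6. Dusp6, a phosphatase of ERK, had 4 MEF peaks and 0 ESC peaks, and 1 ESC library had a peak in its exons.

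Of 42 Polycomb, Trithorax and BAF genes, 6 were in the MEF list only, 28 in both (66.7%, against 57.1% of all genes) and 8 in the ESC list only. Kmt2a, a histone H3K4 methyltransferase, had 12 MEF peaks and 7 ESC peaks, and Kmt2d had 9 and 10. Setd1b, of the same family of enzymes, had 0 MEF peaks and 7 ESC peaks. Of 17 genes for m6A writers, readers and erasers, 1 was in the MEF list only (Igf2bp2, a reader), 13 in both (76.5%, against 57.1%) and 3 in the ESC list only. Wtap, Virma and Zc3h13, subunits of the writer complex, had 3, 5 and 5 MEF peaks and 3, 5 and 3 ESC peaks. The 3 on the ESC side were Igf2bp1, Hnrnpc and Hnrnpa2b1, and their single peaks all lay near the transcript start. In 2 of these 3 genes the peak overlapped a peak of the Mettl3-knockout library. Of all 2143 ESC-only genes, 429 had peaks near the start only, and in 301 all peaks overlapped the knockout library. Tet1, which oxidises 5-methylcytosine and is high in ESCs, had 2 MEF peaks and 5 ESC peaks, and Tet2 had 5 and 4, all in common.

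Of 22 genes of the G1 to S cell cycle, 4 were in the MEF list only (Ccnd2, Cdk6, Cdkn2a and Cdkn2c), 13 in both and 5 in the ESC list only (Ccne1, Cdk1, Cdk2, Rbl2 and Cdc6). Their shares of 18.2%, 59.1% and 22.7% were near the 14.2%, 57.1% and 28.7% of all genes. Cdkn2a, which encodes inhibitors of the cell cycle, had 1 MEF peak of 109 bp outside the exons of its canonical transcript and no peak in any ESC library. Of 22 genes of p53 and apoptosis, 16 were in both lists (72.7%), and all peaks were in common in 14 of them. Over all genes of both lists, all peaks were in common in 50.6%, and among those with 1 peak in each list the peaks overlapped in 92.6%. The p53 and apoptosis genes had few peaks, 25 MEF peaks in 18 genes and 31 ESC peaks in 20. The part of peak number in their share was not tested. Of 20 genes of inflammation and interferon, 3 were in the MEF list only (Irf9, Socs1 and Tlr2), 13 in both and 4 in the ESC list only. These were 15%, 65% and 20%, not far from the shares of all genes. Irf9 and Tlr2 each had a peak in 2 ESC libraries and Socs1 in 1. DNA methylation, TET and H3K9 genes had 2 in the MEF list only (8.33%), 16 in both (66.7%) and 6 in the ESC list only (25%). Ribosomal protein genes had 3 of 68 members in either list. Glycolysis had 0 genes in the MEF list only, 4 in both and 8 in the ESC list only (66.7%, against 28.7% of all genes). Of these 8, 5 had no other peak than one near the transcript start (Pfkl, Pfkp, Pgk1, Pgam1 and Ldhb). This was so in 429 of all 2143 ESC-only genes. In 4 of the 8 genes all peaks overlapped a peak of the Mettl3-knockout library, against 301 of all 2143.

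The lists differed in the place of their peaks near the transcript start and in coding sequence. Of the peaks centred in an exon of the canonical mRNA of their gene, 7.12% lay within 200 nt of the transcript start in MEFs (660 of 9269, interval 6.61 to 7.66) and 13.5% in ESCs (1311 of 9718, 12.8 to 14.2). The share within 200 nt of the stop codon was 26.5% in MEFs and 27.6% in ESCs, and that in the rest of the coding sequence 45.2% in MEFs and 37.5% in ESCs. When all lists were placed without regard to the named gene, 7.19% of MEF peaks lay near a start. The ESC libraries A, B and C had 11.8%, 20.9% and 10.3%, and the final EB list 13.4%. The MEF value was below those of all 3 ESC libraries, and the ESC libraries spread over a range that is wider than the gap between MEFs and the lowest of them.

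Peaks found in both lists had nearly the same distribution, with 5.29% near the start in MEFs and 5.67% in ESCs. Pairing by position brings this about, so a difference between the lists could show mainly in the peaks without a partner. Of those, 10.8% of MEF peaks (332 of 3073) and 25.8% of ESC peaks (974 of 3772) were near the start, and 47.3% of MEF peaks and 28.3% of ESC peaks were in the rest of the coding sequence. Seen from the place, 332 of 660 MEF start peaks had no ESC peak (50.3%), and 974 of 1311 ESC start peaks had no MEF peak (74.3%). Near stop codons, 589 of 2454 MEF peaks and 878 of 2686 ESC peaks (32.7%) had no partner. Start peaks were narrow, with medians of 112 bp in MEFs and 175 bp in ESCs. Among peaks of at least the median width of their list, the share of unpaired peaks near the start was 1.89% in MEFs and 3.94% in ESCs. The order of the unpaired start shares turned without ESC library B, where 75.8% of MEF start peaks and 63.8% of ESC start peaks had no partner. Without library C the shares were 67.1% and 70.2%. These cuts left 5984 and 6775 ESC peaks beside the whole MEF list, which can only raise the MEF share.

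**Figure D3:**
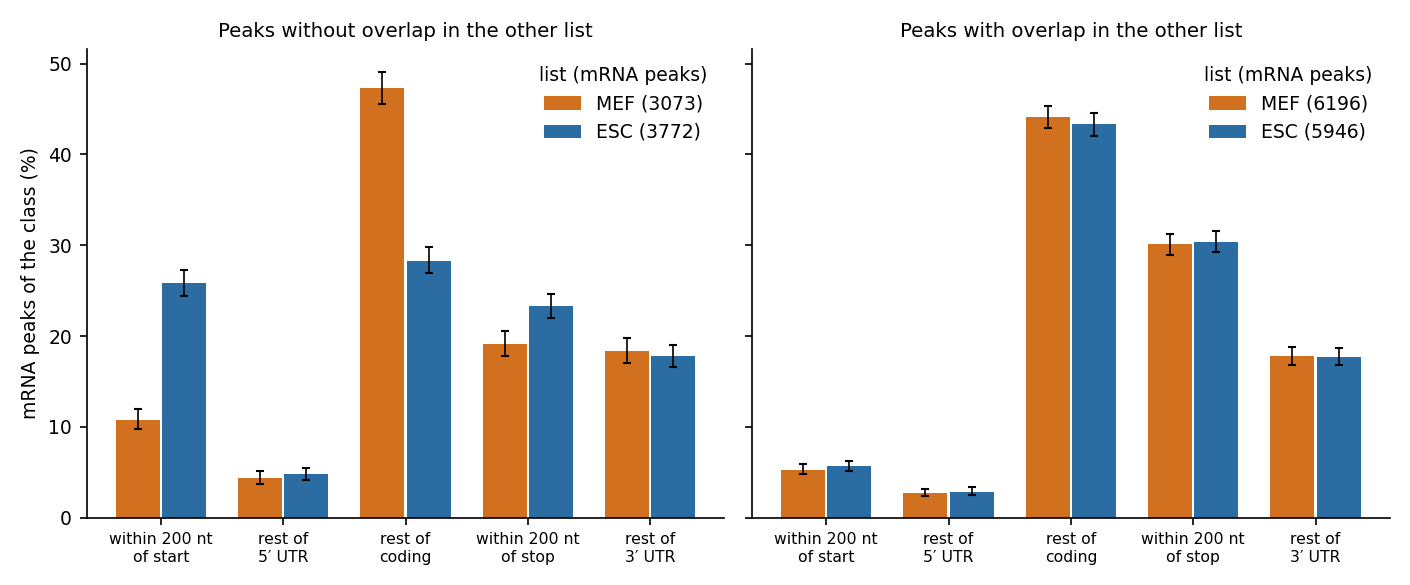
Share of mRNA peaks (%) by place, for MEF and ESC peaks without overlap in the other list (left) and with it (right). Bars are single pooled lists and error bars Wilson 95% intervals. Without overlap, 10.8% of MEF peaks and 25.8% of ESC peaks lie near the start. The distributions on the right nearly coincide, which pairing by position brings about.

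The Mettl3-knockout library shows what the antibody enriched in ESCs without Mettl3. Its peaks overlapped 34.4% of the MEF start peaks and 45.1% of the ESC start peaks, but 0.122% of the MEF stop peaks and 0.372% of the ESC stop peaks. Of ESC start peaks with a knockout peak, 28.1% overlapped a MEF peak (166 of 591, 24.6 to 31.8). Of those without, 23.8% did (171 of 720, 20.8 to 27.0). Most ESC start peaks of either kind had no MEF peak, and the intervals of the 2 shares overlapped. Over whole lists, a knockout peak overlapped 3.61% of MEF peaks with an ESC peak and 3.08% of those without. For ESC peaks it was 3.92% with a MEF peak and 14.9% without. Among start peaks alone it was 48.5% of MEF peaks with an ESC peak and 20.5% of those without, and 49.3% of ESC peaks with a MEF peak and 43.6% of those without. Among genes with peaks in 1 list, 106 of the 1059 MEF-only genes (10.0%) and 429 of the 2143 ESC-only genes had peaks near the start and nowhere else.

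In the 4270 genes of both lists, most peaks stayed in place. All peaks of either list had a partner in 2161 genes (50.6%). A further 903 genes had extra MEF peaks and no extra ESC peak (21.1%), 743 had extra ESC peaks and no extra MEF peak (17.4%), 288 had both (6.74%), and 175 had no peak in common (4.1%). Of 1558 genes with 1 peak in each list, the peaks overlapped in 1443 (92.6%) and did not in 109. In the rest of these genes a peak overlapped one that the other list gives to another gene.

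Extra peaks lay in different parts of the mRNA in each cell type. In genes of both lists, 1770 MEF peaks in mRNAs had no ESC partner, and 54.2% of them were in the rest of the coding sequence and 9.60% near the start. Of 1305 ESC peaks without a MEF partner, 28.8% were in coding sequence and 30.5% near the start. From the side of each place, 26.0% of MEF coding peaks (24.6 to 27.5) and 12.9% of ESC coding peaks (11.7 to 14.1) had no partner. Near the start it was 34.2% in MEFs (30.2 to 38.5) and 54.2% in ESCs (50.6 to 57.8), and near stop codons 10.4% in MEFs and 10.6% in ESCs. Without ESC library B the order near the start turned, with 56.7% in MEFs and 38.5% in ESCs. The coding shares were then 33.0% in MEFs and 7.18% in ESCs. This cut left 5984 ESC peaks beside all 10167 MEF peaks, and how far list size sets these shares was not tested. Of the 398 extra ESC start peaks, 166 overlapped a knockout peak (41.7%). They fell on 394 genes, of which 342 also had a peak in common with MEFs.

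**Figure D4:**
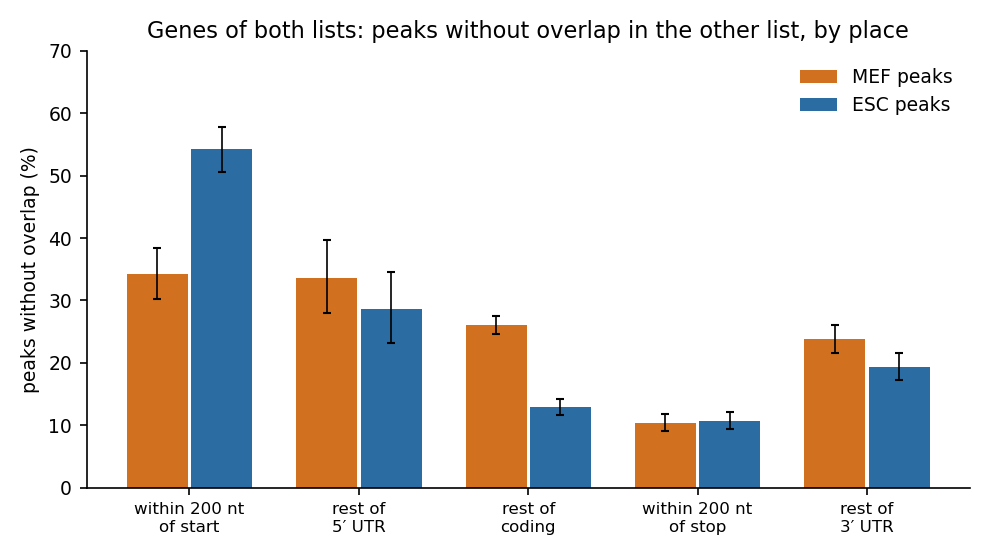
Share (%) of MEF and ESC peaks without overlap in the other list, by place along the mRNA, in genes named in both lists. Bars are single pooled lists with Wilson 95% intervals. Start peaks without a partner are fewer in MEFs (34.2%) than in ESCs (54.2%). The order turns without ESC library B (56.7% and 38.5%), which leaves 5984 ESC peaks. Coding peaks without a partner are more frequent in MEFs (26.0%) than in ESCs (12.9%).

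Of 238 members of the gene lists that were in both lists, 27 had an ESC start peak that the MEF list lacked (11.3%, near the 9.23% of all 4270 genes). Klf2, a factor of naive pluripotency, had 1 MEF peak and 3 ESC peaks. The MEF peak, of 259 bp after the stop codon, lay inside an ESC peak of 514 bp. The ESC peaks near the start and in coding sequence had no MEF peak, and the start peak overlapped the knockout library. Klf5 had its ESC start peak of 273 bp unpaired and a coding peak in common, and in MEFs a peak of 111 bp at its stop codon that no ESC library had. Itgb1, the common beta subunit of many integrins, had a start peak in ESCs, which overlapped the knockout library, and a 3′ UTR peak in both lists. Epha2, Epha4, Jarid2, Kmt2a, Ythdf1 and Virma were further members with an unpaired ESC start peak. In the other direction 9 members had an unpaired MEF start peak (3.78%, near the 3.98% of all genes), among them Egfr, Ephb4, Cebpd and Bcar1.

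Long mRNAs carried the largest surplus of MEF peaks. Extra coding peaks in MEFs numbered 959 on 638 genes, and 71 of these genes with 3 or more held 286 of them. Vcan, which encodes the large matrix proteoglycan versican, had 15 MEF peaks and 2 ESC peaks. Of its MEF peaks, 13 lay in coding sequence, 1 at the stop codon and 1 in the 3′ UTR. The single one in common lay in coding sequence (chr13:89690252-89690538), and the other ESC peak, of 377 bp near the start, had no MEF peak. Col6a3, a chain of collagen VI, had 8 MEF peaks and 2 ESC peaks, both in common. Dst, a giant linker of the cytoskeleton, had 13 MEF peaks and 6 ESC peaks. Peak1, a kinase-like protein of focal adhesions, had 10 and 2, and the Golgi protein gene Trip11 8 and 1. Akap13, Cenpf and Stard9 each had 8 MEF peaks, with 2, 2 and 1 in ESCs. Rnf213, a giant ubiquitin ligase, had 10 MEF peaks and 2 ESC peaks, but 7 of its 10 MEF peaks overlapped a peak in all 3 ESC libraries while 1 overlapped a final ESC peak.

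The surplus of ESC peaks was smaller, with up to 9 more peaks in ESCs. Plec, which encodes the cytoskeletal linker plectin, had 10 ESC peaks, 9 of them from its coding sequence to its 3′ UTR, and 1 MEF peak of 90 bp outside the exons of the canonical transcript. Shroom3, an organiser of apical actin in epithelia, had 1 MEF peak and 7 ESC peaks, of which 1 was in common. Ankrd11, a chromatin regulator, had 2 MEF peaks and 7 ESC peaks. The next were Piga, a gene of GPI anchor synthesis (2 MEF peaks and 6 ESC peaks), Slc16a6, Tmem168 and Zmym1 (1 and 5 each, though 4 of the 5 ESC peaks of Zmym1 overlapped a MEF peak under this or another name), Aff4, a scaffold of transcription elongation, and Brca2, of DNA repair (3 and 6 each), and B4galt6 (1 and 4).

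Full switches were few. They numbered 175, or 149 when peak edges had to lie at least 200 bp apart. The 175 genes with no peak in common had 235 MEF peaks, of which 126 overlapped no peak of any ESC library. In 79 of the 175 genes this held for every MEF peak, and in the other 96 at least 1 MEF peak overlapped a peak of an ESC library. Switched peaks were narrow, with medians of 132 bp in MEFs and 197 bp in ESCs. In 134 genes the nearest MEF and ESC peaks both lay on the canonical mRNA, with centres 27 to 10467 nt apart (median 815.5). The MEF peak was downstream in 76 of these genes and upstream in 58. The ESC peak was near the start in 34 genes and the MEF peak in 11. The 34 ESC start peaks went with a MEF peak in coding sequence (14 genes), near the stop codon (14) or in the 3′ UTR (6), and 12 of the 34 overlapped a knockout peak.

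**Figure D5:**
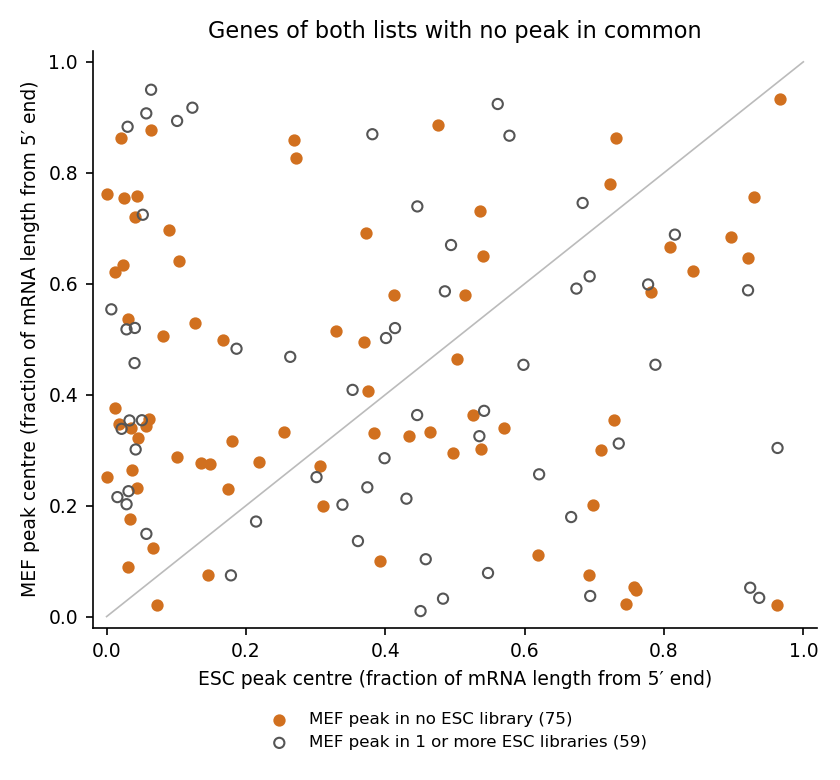
Position of the nearest MEF peak centre (vertical) against the ESC peak centre (horizontal), as fractions of canonical mRNA length from the 5′ end, in 134 genes with no peak in common. Filled points are 75 genes whose MEF peak overlapped no ESC library peak. In 76 genes, above the line, the MEF peak is downstream, and many points lie at the left edge, where the ESC peak is near the start.

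Ranked by the narrower peak of the nearest pair, the switched genes began with Emilin1, which encodes a glycoprotein of elastic fibres. Its MEF peaks of 356 and 105 bp lay within 200 nt of the stop codon and overlapped no ESC library, while its ESC peak of 649 bp lay in coding sequence 1693 nt before the end of the stop codon and was found in all 3 libraries. The sequences of both sites are printed above. In Mprip, a regulator of myosin phosphatase, 5 MEF peaks in coding sequence overlapped no ESC library, and the ESC peak lay 600 nt upstream of the nearest. In Cacna1a, a calcium channel gene, the nearest peak centres were 2518 nt apart, both in coding sequence. Ncoa7, a nuclear receptor coactivator, had a MEF peak of 407 bp in coding sequence and an ESC peak of 263 bp at the stop codon, and the MEF peak overlapped peaks of 2 ESC libraries, so that its switch holds for the final list and not for the libraries. The same was seen in Aars, whose MEF peak of 672 bp in the 3′ UTR lay in all 3 ESC libraries. Ybey, Ccdc86, Hvcn1, Dnajb4 and Magee1 were also among the 10 first by this rank.

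By distance, 4932438A13Rik and Tmbim1 came first, at 10467 and 10366 nt, followed by Col5a2, a fibrillar collagen gene, whose MEF peak of 19 bp lay near the start and whose ESC peak lay at the stop codon, 4783 nt away. The chromatin remodeller gene Atrx had MEF peaks in coding sequence and an ESC peak before the stop codon, 4348 nt from the nearest. The nearest MEF peaks of Atrx and of 4932438A13Rik, the latter of 12 bp, each overlapped 1 ESC library. Fbxw8, Anln, Smurf1, Tnpo1 and Hdac6 had the ESC peak near the start and the MEF peak near the stop codon, in the 3′ UTR or in coding sequence, and none of these MEF peaks nearest to the ESC peak overlapped an ESC library. The ESC start peaks of Smurf1, Tnpo1 and Hdac6 overlapped the knockout library. Anln (anillin, an actin binder of cell division) had its MEF peak before the stop codon, 3359 nt from its ESC peak. Smurf1, a ubiquitin ligase of the TGF beta pathway, had 3 MEF peaks in its 3′ UTR. In Hdac6, a tubulin deacetylase, the MEF peak lay in coding sequence 2962 nt from the ESC peak. Ipo4 showed the same order, but its MEF peak overlapped 1 ESC library. Tnks ran the other way, with its MEF peak near the start and its ESC peak after the stop codon. That MEF peak also overlapped 1 ESC library. Mdn1, Rc3h1, Rab11fip5 and Rab11fip1 completed the 15, and the nearest MEF peaks of Rab11fip5 and Rab11fip1 overlapped 1 ESC library each. In the gene lists, the matrix genes Col5a1, Col5a2, Sparc and Emilin1, the cell cycle genes Cdkn1b and E2f2, the TGF beta genes Smurf1 and Smurf2, and Cdh11, Igf2r, Rela, Zfp36 and Dvl3 had no peak in common. The peaks of Sparc, of 109 bp in MEFs and 224 bp in ESCs, lay apart in the genome but had centres only 59 nt apart on the spliced mRNA, less than the width of the ESC peak.

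Among protein-coding genes in the MEF list only, with no ESC library peak in their exons, the widest peaks began with Vasn, at 1737 bp in coding sequence (chr16:4648808-4650544), with 2 more peaks upstream. B3gnt9, a glycosyltransferase gene, had 3 MEF peaks, the widest of 1071 bp, and Sphk1, a kinase that makes sphingosine-1-phosphate, 1 of 530 bp. Col12a1 had 1 of 400 bp and the interferon gamma receptor gene Ifngr1 1 of 362 bp at its stop codon. Smo, the signal transducer of the hedgehog pathway, had 2 MEF peaks, one of 352 bp at its stop codon. Tbx15, Arhgef19, Klhl5, Rps6ka3 and Cd99l2 followed with widths of 270 to 345 bp. The widest peaks of 4930402H24Rik, Itgae, Macrod1 and Uckl1 lay outside the exons of the canonical transcripts of these genes, and may belong to another gene. Those of 4930402H24Rik and Uckl1 overlapped a peak of 1 ESC library, and that of Itgae overlapped a final ESC peak listed under another gene. Of the 15, Vasn and Ifngr1 were also in the EB list.

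The widest peaks of ESC-only genes were those of Tmem132d (5047 bp) and Flg (2269 bp), which lay outside the exons of the canonical mRNA. No ESC library had a peak in exons of Tmem132d or Glmn, and the final peaks of both overlapped a peak of the knockout library. Zbtb22, a zinc finger gene, had 1 ESC peak of 1894 bp in coding sequence, which overlapped a MEF peak listed under another gene, Sh3tc1 1 of 1661 bp, Rbmxl2 1 of 1358 bp and Celsr2, a cadherin of planar polarity, 2 with the widest of 1258 bp. Zic2, Ripk4, Plekhg1, Tnc, Tagap, Sox2 and Dapk1 followed with 1100 to 1248 bp, beside Fgd4 with 1718 bp outside the exons of its canonical mRNA. The peaks of Rbmxl2 and Tnc overlapped the knockout library.

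The motif GGAC was about as common near MEF peaks as near ESC peaks. It was sought as these 4 letters on the mRNA strand within 50 nt of the peak centre. It was found at 57.1% of MEF peaks (interval 56.1 to 58.1) and 56.6% of ESC peaks (55.6 to 57.6), against 33.9% and 33.3% of windows of the same length placed 300 nt to either side on the same mRNAs. MEF peaks with an ESC peak held it in 58.9% (57.7 to 60.1) and those without in 53.4% (51.6 to 55.1). The lowest share, 50.2% (644 of 1282), was at MEF peaks that no ESC library had. For ESC peaks the shares were 56.7% with a MEF peak and 56.5% without. By place, unpaired coding peaks held GGAC in 50.4% of MEF peaks (734 of 1455) and 61.7% of ESC peaks (659 of 1068), while unpaired start peaks held it in 54.2% of MEF peaks (48.7 to 59.6) and 47.0% of ESC peaks (43.8 to 50.2). With the wider motif DRACH the order of the unpaired peaks turned: they stood 7.03 percentage points above their flanks in MEFs and 3.80 in ESCs, against 19.2 and 23.1 with GGAC.

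Coding peaks of both cell types sat in long exons. Exons of at least 400 nt held 94.6% of MEF coding peaks and 94.1% of ESC coding peaks. For peaks without a partner it was 91.5% in MEFs and 88.8% in ESCs. The median exon length of unpaired coding peaks in genes of both lists was 1989 nt in MEFs and 1079.5 nt in ESCs.

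The EB list, made from ESCs left to differentiate, lay closer to ESCs. Peaks common to MEFs and ESCs were in the EB list in 82.9% of MEF peaks and 82.5% of ESC peaks. Of unpaired peaks, 20.9% of those of MEFs (19.6 to 22.2) and 49.1% of those of ESCs (47.6 to 50.6) overlapped an EB peak. In genes, 206 of the 1059 MEF-only genes (19.5%) and 1145 of the 2143 ESC-only genes (53.4%) were in the EB list, among them Twist1 on the MEF side and Nanog and Sall4 on the ESC side.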

How the data were processed

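The authors deposited peak positions with a gene symbol, and no count, score or p-value; the build was mm10 and the tools were MACS 1.4.1, CASAVA 1.8.2 and TopHat2 2.0.10, per the submitters' processing notes. Their order and settings are not given in the sources used here, nor is how replicates were joined. Of the 18 samples, the lists of MEFs (2 enriched libraries), ESCs (3) and EBs (3) and the separate ESC and knockout library lists were used. MEF starts may be off by 1 bp.

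Overlaps were counted at 1 bp with Python 3.11.15, NumPy 2.4.6, pandas 2.3.3, SciPy 1.17.1 and pysam 0.24.0. Figures were drawn with matplotlib 3.10.9. Symbols were joined by RefSeq synonyms: of 5330 MEF symbols 4 and of 6413 ESC symbols 9 found no match, and 14 MEF peaks carried a date in place of a symbol. Peaks were placed by their centre on the transcript with the longest coding sequence (GENCODE M21): near the stop codon (200 nt) first, then near the start (200 nt), then 5′ UTR, coding sequence or 3′ UTR. No test between cell types was made, since each has 1 pooled list. The overlap counting was tested on simulated data.

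Named genes were members of the function lists, the 15 widest peaks of genes in 1 list only, the 15 farthest and 10 widest switches and the 10 largest surpluses in each direction. The comparison, its rule and the lists were chosen with earlier results of these data known. Some genes that this rule names are not reported here.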

Additional observations from a re-analysis of the deposited data

How the results depend on the processing

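No paired analysis was possible because the MEF list used here is pooled over replicates and the results come from no test. Of 49 values from alternatives other than leaving out a library, 21 stayed within the limits set and 28 moved. The rebuilt ESC list, symbols as spelled and the shares within genes of both lists without a library were chosen after seeing the data. Leaving out ESC library A, B or C kept 9254, 5984 or 6775 ESC peaks and all MEF peaks. The share of MEF peaks with an ESC peak was 63.0% when 50% of the shorter peak had to overlap, 84.6% against peaks of any ESC library, 69.0% against the rebuilt list and 47.4% to 60.1% when an ESC library was left out. The share of ESC peaks with a MEF peak was 58.7%, 30.1% and 57.1% under the same 3 alternatives, 60.7% with the longer list cut to its widest peaks, 60.9% for peaks of at least median width and 62.3% to 73.8% without a library. Genes in the MEF list only numbered 213 against any ESC library and 1245 to 1998 without a library. Genes in the ESC list only numbered 7791 with any library, 1385 at median width and 978 to 1828 without a library. Genes in both lists numbered 2546 at median width and 3331 to 4084 without a library. Genes with no peak in common numbered 149 with peak edges at least 200 bp apart, 79 with any library and 105 to 192 without a library.

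Of unpaired peaks, the share near a start was 3.42% in MEFs and 11.9% in ESCs within 100 nt, 1.89% in MEFs and 3.94% in ESCs at median width, and 10.0% to 11.3% in MEFs and 19.8% to 27.9% in ESCs without a library. The share of start peaks without a partner was 57.4% in MEFs and 78.1% in ESCs at median width, 78.0% in ESCs within 100 nt, and 59.4% to 75.8% in MEFs and 63.8% to 72.3% in ESCs without a library. In genes of both lists and without a library, start peaks without a partner were 42.2% to 56.7% in MEFs and 38.5% to 52.4% in ESCs, and coding peaks 29.0% to 33.0% in MEFs and 7.18% to 11.8% in ESCs. GGAC within 25 nt stood above its flanks by 13.4 points at unpaired MEF peaks, 17.1 at unpaired ESC peaks, 17.3 at paired MEF peaks and 17.1 at paired ESC peaks. DRACH stood 7.03, 3.80, 9.67 and 9.56 points above in the same order. The cause of these shifts was not tested. Depth is unknown, so a missing peak may be one that was not detectable.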

Other observations

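The largest number of peaks under 1 name in the MEF list was that of Pcdhgc4, a gene of the gamma protocadherin cluster, with 23 MEF peaks. It had 0 peaks in the final ESC list and 0 in the final EB list. Of the 23 MEF peaks, 9 overlapped no peak of any ESC library. Genes of this cluster share their last exons. On the X chromosome lay 1.73% of MEF peaks and 2.28% of ESC peaks.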
